A study of Mus musculus with 4 samples.

Results

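Mouse MHC class I molecules pair a heavy chain with the light chain beta-2-microglobulin. The genes described here are the light chain gene B2m, the classical heavy chain genes H2-K1 and H2-D1, and the nonclassical heavy chain genes H2-Q4, H2-Q6, H2-Q7, H2-T22, H2-T23, H2-T24 and H2-M3. They were chosen by name, and all 10 were found among the 27433 rows of the FPKM table. Poly(A) RNA had been sequenced from lung macrophages of tumor-bearing chimeric mice. Every recipient was a lethally irradiated KrasLSL-G12D/+Lkb1fl/fl (KL) mouse that later received adenoviral Cre (Ad-Cre) through the nose. In the WTKL group (2 libraries) the donor marrow was Tmem173fl/fl without Cre, and in the LYZKL group (2 libraries) it was Tmem173fl/fl;Lyz2-Cre. Both groups thus carried floxed Tmem173 in the marrow and the tumor alleles in the host. The sorted cells were CD11b+, Ly6G-, CD64+ and low for Siglec-F, taken 8 weeks after the virus. The sources used here give no mouse age, no pooling of animals and no share of host cells left after irradiation.

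Lyz2-Cre acts mainly in macrophages and neutrophils, and Tmem173 encodes STING, the adaptor of the cytosolic DNA sensor cGAS. The WTKL marrow had no Cre, so an effect of the Cre allele and one of Tmem173 loss cannot be told apart. Tmem173 had 15.4 and 15.2 FPKM in WTKL against 5.02 and 4.75 in LYZKL, and it fell by 1.47 on the log2(FPKM + 1) scale (SE 0.06, adjusted p = 0.0452 in limma, 0.0168 to 0.239 over the 12 alternatives that could be run for it, without limma-voom on rebuilt reads). FPKM are reads scaled to gene length and library total. Library totals implied by the table were 15466117 to 22867836 reads. The macrophage genes Cd68, Adgre1 and Fcgr1 (CD64) were present in all 4 libraries, at 367 to 386, 56.0 to 58.7 and 19.5 to 25.5 FPKM. Of the gate's other genes, Ly6g stood at 0.418 to 0.985 FPKM, and Siglecf at 6.05 and 6.80 FPKM in WTKL against 15.55 and 15.61 in LYZKL. Siglecf rose by 1.16 on the log2 scale (SE 0.07, adjusted p = 0.0452 in limma, 3.71e-05 to 0.239 over the 13 alternatives), although the gate was low for Siglec-F in both groups. Its part in the class I differences was not tested. The labels do not state that the libraries of a group are from different mice, so the tests below speak only of the spread between these libraries.

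Classical class I molecules are found on nearly all nucleated cells and show peptides from the cytosol to CD8 T cells. Nonclassical molecules are less variable between individuals and serve narrower roles: H2-T23 encodes Qa-1, the ligand of the CD94-NKG2 receptors of NK cells, H2-Q7 belongs to the Qa-2 genes, H2-M3 presents formylated peptides, and H2-T22 encodes a ligand of a set of gamma-delta T cells. Interferon-gamma raises class I transcription through IRF1 and the transactivator NLRC5. Peptides are cut by the proteasome and its interferon-induced subunits, pumped into the endoplasmic reticulum by the transporter TAP, and loaded with the help of tapasin.

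The promoters are shown because several of these genes carry the same letters upstream of their start. RefSeq promoter sequences on GRCm38.p6, from 250 bases before to 50 bases after a transcript start, were matched for 9 of the 10 genes. H2-T24 was not matched. The 200 bases before the start are given 5′ to 3′ for 6 of them: B2m (chr2:122147487-122147686, plus strand), H2-K1 (chr17:34000348-34000547, minus strand), H2-D1 (chr17:35262894-35263093, plus strand), H2-Q6 (chr17:35424650-35424849, plus strand), H2-T23 (chr17:36032702-36032901, minus strand) and H2-M3 (chr17:37270034-37270233, plus strand). Capitals mark, on either strand, the NF-kB-like letters GGNGATTNC, the interferon regulatory factor letters AANNGAAA, the letters TGATGAC and TGACG of the CREB/ATF site, and CCAAT, the letters bound by NF-Y.
B2m: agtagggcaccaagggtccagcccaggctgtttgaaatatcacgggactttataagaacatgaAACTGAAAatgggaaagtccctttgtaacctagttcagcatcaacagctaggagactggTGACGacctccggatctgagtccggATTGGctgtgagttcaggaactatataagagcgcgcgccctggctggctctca
H2-K1: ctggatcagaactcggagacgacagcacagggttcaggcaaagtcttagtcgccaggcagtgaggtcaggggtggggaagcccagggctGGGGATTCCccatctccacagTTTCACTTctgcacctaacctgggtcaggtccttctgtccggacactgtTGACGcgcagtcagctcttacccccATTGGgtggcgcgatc
H2-D1: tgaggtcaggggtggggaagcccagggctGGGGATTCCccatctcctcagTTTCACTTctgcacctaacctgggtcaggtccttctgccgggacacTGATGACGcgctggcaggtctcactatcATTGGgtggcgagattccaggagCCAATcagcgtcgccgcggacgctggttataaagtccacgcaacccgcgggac
H2-Q6: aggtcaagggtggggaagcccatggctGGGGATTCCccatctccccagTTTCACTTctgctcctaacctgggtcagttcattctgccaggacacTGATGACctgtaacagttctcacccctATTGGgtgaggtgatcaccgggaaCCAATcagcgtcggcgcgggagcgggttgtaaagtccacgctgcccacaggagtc
H2-T23: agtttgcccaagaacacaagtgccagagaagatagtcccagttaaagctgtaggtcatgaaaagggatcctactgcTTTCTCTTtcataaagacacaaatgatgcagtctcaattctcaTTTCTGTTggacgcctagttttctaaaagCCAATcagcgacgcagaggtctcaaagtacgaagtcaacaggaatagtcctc
H2-M3: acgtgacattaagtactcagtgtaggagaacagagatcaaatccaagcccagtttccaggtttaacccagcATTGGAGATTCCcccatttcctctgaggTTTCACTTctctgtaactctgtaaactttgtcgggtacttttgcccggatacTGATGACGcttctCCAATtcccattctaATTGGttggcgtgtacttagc

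Each motif was searched on both strands of the window, and the letters were chosen after these promoters had been read. The NF-kB-like letters GGNGATTNC were in 6 of the 9 promoters (H2-K1, H2-D1, H2-Q4, H2-Q6, H2-Q7 and H2-M3), against 2.41% of the 32851 promoters in the table. GGGATTCCC, which overlaps the former, was in 4 of 9 (H2-K1, H2-D1, H2-Q6 and H2-Q7), against 0.353% of all. AANNGAAA was in all 9, against 23.9% of all promoters. Its narrower form AAGTGAAA was in 7, which left out B2m and H2-T23, against 1.60%. TGATGAC was in 6 of 9 and TGACG, which can overlap it, in 7 of 9, against 3.23% and 20.8% of all. CCAAT was in all 9, against 37.4%. A match describes letters only and does not show that a factor binds there.

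All 10 class I genes were measured lower in both LYZKL libraries than in both WTKL libraries, with LYZKL means between 70.6% and 91.7% of the WTKL means. None passed the adjusted threshold. The groups did not overlap for 10 of 10 genes, where 24.4% of the 12691 genes tested lay lower in LYZKL without overlap. With limma over all genes tested, 0 of 10 passed an adjusted p of 0.05 (background 0.134% of genes called lower), and their adjusted p ran from 0.0663 to 0.436. At an unadjusted p under 0.05 there were 8 of 10 lower, where 7.85% of all genes were. Tested by limma-voom on whole reads rebuilt from the FPKM values, 7 of 10 fell, at adjusted p from 0.000895 to 0.0491 (background 3.54%). Over the 13 alternatives the adjusted p of those 7 ranged from 0.000895 to 0.601. With testing limited to genes of at least 5 FPKM on average, 6 of 10 fell in limma (background 1.99%). The median log2 difference of the 10 was −0.36, beside 0.01 over all genes tested. In these bulk samples, fewer cells of a type and less RNA per cell cannot be told apart.

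**Figure D1:**
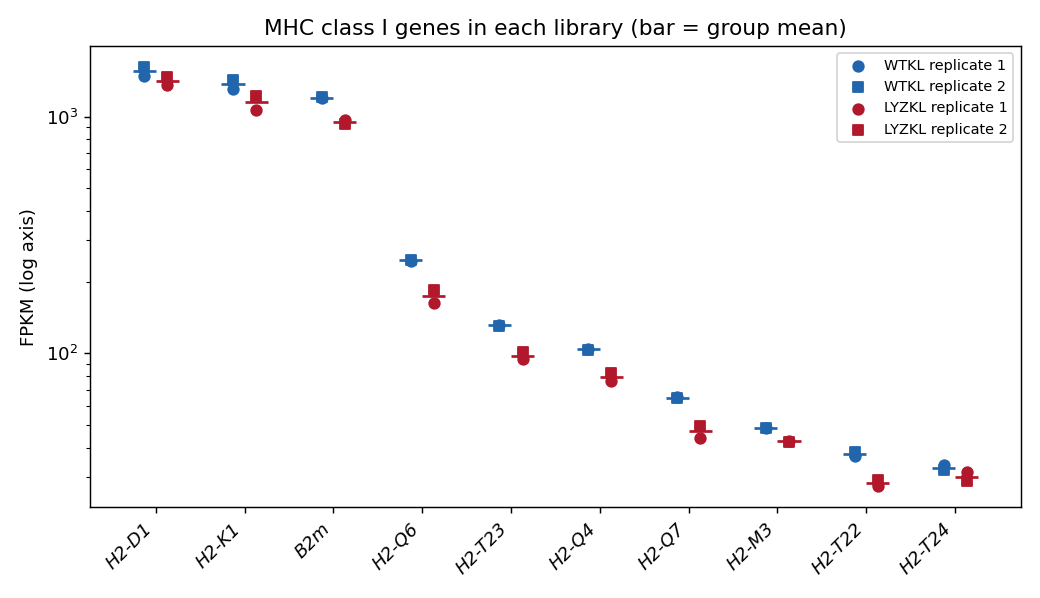
FPKM of the 10 class I genes (log axis) in each of the 4 libraries, with WTKL in blue, LYZKL in red, replicate 1 as circles, replicate 2 as squares and bars at the group means of 2 libraries. In every gene both red points lie below both blue points, and the 3 leftmost genes, H2-D1, H2-K1 and B2m, stand well above the nonclassical genes.

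The light chain was lower in LYZKL by more than the spread between libraries, but it did not pass the adjusted threshold in limma. B2m lies on the plus strand of chromosome 2 from 122147686 to 122153083 (GENCODE M21 on GRCm38, the assembly of mm10). WTKL libraries held 1193 and 1206 FPKM of it, LYZKL libraries 965 and 931. The 2 values within each group lay close together and the groups were far apart. The log2 difference was −0.34 (SE 0.05, 95% interval −0.48 to −0.19), with an adjusted p of 0.0866 in limma. It passed by limma-voom (adjusted p = 0.00287) and in limma on genes of at least 5 FPKM on average (adjusted p = 0.0465). It did not pass with the other pseudocounts or scalings, with the replicate block, without a filter or without the trend. B2m rested on 13661 to 23710 reads per library, and its ratio of reads per library total, LYZKL to WTKL, was 0.789 (exact binomial 95% interval 0.777 to 0.801). Here and below such intervals cover counting error only.

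The classical heavy chains were the most abundant class I transcripts and neither passed the adjusted threshold in limma, while H2-K1 fell by limma-voom. H2-K1 occupies 33996017 to 34000347 of chromosome 17, minus strand. Its level was 1307 and 1432 FPKM in WTKL and 1069 and 1224 FPKM in LYZKL. The gap between the highest LYZKL and the lowest WTKL library was smaller than the gap between the LYZKL libraries. Its log2 difference was −0.26 (SE 0.10, 95% interval −0.51 to −0.0017, adjusted p = 0.266 in limma and 0.0491 by limma-voom, 0.0491 to 0.601 over the 13 alternatives). H2-D1, on the plus strand from 35262730 to 35267499, had 1479 and 1619.7 FPKM in WTKL against 1358 and 1463 in LYZKL, so the groups almost touched. The log2 difference of H2-D1 was −0.13 (SE 0.08, 95% interval −0.35 to 0.08, adjusted p = 0.436 in limma). Counting error was small for this gene, with a read ratio of 0.904 (exact binomial 95% interval 0.898 to 0.911), and the spread between replicates was the larger error. The H2-K1 to H2-D1 ratio of FPKM was 0.884 in each WTKL library, against 0.787 and 0.837 with LYZKL marrow.

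Among the nonclassical genes, 5 showed log2 differences between −0.38 and −0.50, and H2-M3 and H2-T24 smaller ones. H2-Q6 (chromosome 17, plus strand, 35424850 to 35430055) was the most abundant nonclassical member, at 245.6 and 247.9 FPKM in WTKL and 163 and 185 FPKM in LYZKL. Its difference of −0.50 (SE 0.08, 95% interval −0.71 to −0.30, adjusted p = 0.0822 in limma) was the largest of the 10 in size. H2-Q7, its neighbor at 35439155 to 35443773, was at 65.5 and 64.7 FPKM in WTKL and 44.0 and 49.6 FPKM in LYZKL, a difference of −0.47 (SE 0.07, adjusted p = 0.0829). For both Q genes the WTKL libraries were nearly equal and LYZKL replicate 1 was the lowest. H2-Q4, at 35379617 to 35385290 on the same strand, was at 104.2 and 103.5 FPKM in WTKL and 76.4 and 82.8 FPKM in LYZKL, a difference of −0.38 (SE 0.06, adjusted p = 0.0827). The 10 do not include H2-M2, another H2 class I gene, at 247 and 276 FPKM in WTKL and 140.6 and 174.7 in LYZKL.

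The Qa-1 gene H2-T23 had the smallest adjusted p of the 10 genes. It occupies 36029773 to 36032855 of chromosome 17, minus strand, and was at 132 and 131 FPKM in WTKL and 94.3 and 101 FPKM in LYZKL. The log2 difference was −0.43 (SE 0.06, 95% interval −0.58 to −0.28, adjusted p = 0.0663 in limma), and its adjusted p over the 13 alternatives ranged from 0.00121 to 0.289. Its neighbor H2-T22 (minus strand, 36037128 to 36042747) was at 36.9 and 38.4 FPKM in WTKL and 27.4 and 29.3 FPKM in LYZKL, a difference of −0.40 (SE 0.06, adjusted p = 0.0803). H2-T24 (minus strand, 36005695 to 36020560), which lies in the same gene cluster, was at 33.7 and 32.1 FPKM in WTKL and 31.4 and 28.9 FPKM in LYZKL. Its groups lay side by side with a difference of −0.12 (95% interval −0.30 to 0.05, adjusted p = 0.402). H2-M3 (plus strand, 37270220 to 37274484) was at 48.4 and 48.5 FPKM in WTKL and 42.9 and 42.1 FPKM in LYZKL. Its libraries agreed most closely within groups, and the difference was −0.19 (SE 0.05, 95% interval −0.31 to −0.06, adjusted p = 0.155).

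**Figure D2:**
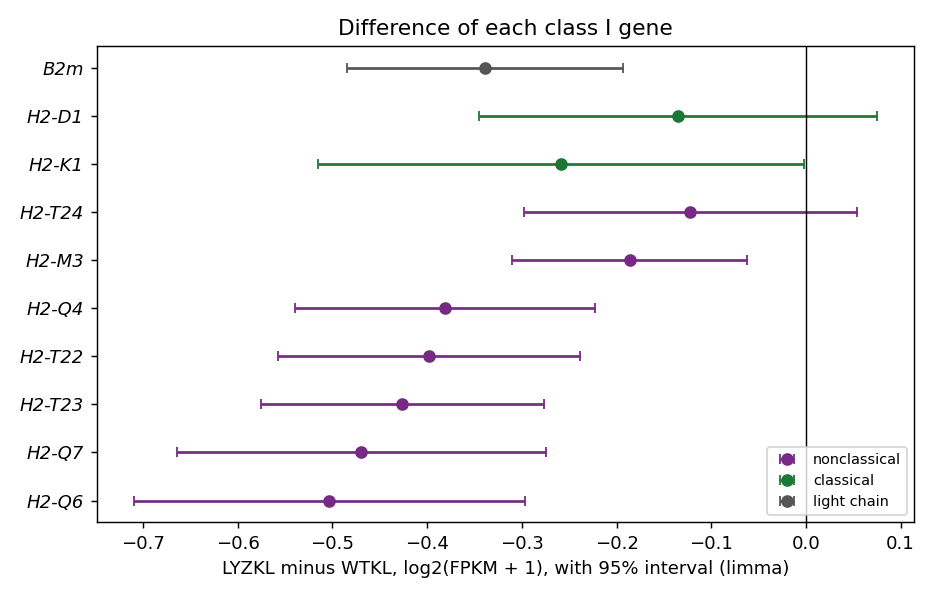
Difference of LYZKL minus WTKL on the log2(FPKM + 1) scale for each class I gene, with limma's 95% interval from 2 libraries per group, colored by role. All 10 points lie left of 0, and the intervals of H2-D1 and H2-T24 reach past 0.

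The order of levels was nearly the same in both groups. In FPKM, the WTKL order from high to low was H2-D1, H2-K1, B2m, H2-Q6, H2-T23, H2-Q4, H2-Q7, H2-M3, H2-T22 and H2-T24, and no 2 neighbors in it overlapped over the WTKL libraries. In LYZKL the order differed only at its end, where H2-T24 (28.9 and 31.4 FPKM) and H2-T22 (27.4 and 29.3 FPKM) overlapped. Summed FPKM of the 9 heavy chain genes was 3453 and 3718 in WTKL and 2906 and 3206 in LYZKL. Other H2 class I genes, among them the abundant H2-M2, are not in this sum. The classical pair held most of it, and the 7 nonclassical genes held 19.3% and 17.9% of it in WTKL against 16.5% and 16.2% in LYZKL. That share was lower in both LYZKL libraries, with a mean difference of −2.27 percentage points, and −1.02 without H2-Q6 and H2-Q7. An exact permutation test of 2 libraries against 2 cannot reach 0.05, and no p is given for this share. H2-D1 made up 42.8% and 43.6% of heavy chain FPKM in WTKL and 46.7% and 45.6% in LYZKL, while H2-Q6 made up 7.11% and 6.67% in WTKL and 5.61% and 5.78% in LYZKL. The shares of H2-Q4, H2-Q7, H2-T22 and H2-T23 were also lower in both LYZKL libraries. Those of H2-K1, H2-T24 and H2-M3 overlapped between the groups. Mean shares of H2-T24 and H2-M3 were 0.92% and 1.35% in WTKL and 0.99% and 1.39% in LYZKL. B2m per summed heavy chain FPKM was 0.346 and 0.324 in WTKL and 0.332 and 0.290 in LYZKL, and these ranges overlapped. The 10 genes together took 1.26% and 1.32% of all FPKM in WTKL and 1.06% and 1.14% in LYZKL.

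Sequence shared between class I genes limits how well reads can be given to 1 of them. Of the distinct 100-base stretches in GENCODE M21 transcripts of each gene, the share also present in transcripts of another gene was 0% for B2m, H2-T24 and H2-M3, 0.957% for H2-K1, 3.59% for H2-D1 and 3.15% for H2-T23. It was 14.1% for H2-Q4, 13.0% for H2-Q6, 12.0% for H2-Q7 and 31.5% for H2-T22. The 4 genes with the most shared sequence were among the 5 nonclassical genes with the larger differences, and H2-T23 was the other. H2-Q6 and H2-Q7 shared sequence with each other, and most of the H2-T22 share was with A930015D03Rik, an opposite-strand gene whose exons cover 29.4% of the H2-T22 exon bases. Gm11131 on the opposite strand covers 19.1% of H2-Q4. The kit did not mark strand, so reads of such pairs cannot be told apart, and the values of H2-Q4, H2-Q6, H2-Q7 and H2-T22 are uncertain to that degree. Whether shared sequence had a part in the differences was not tested. Rebuilt reads were whole at the GENCODE exon length for 9 of the 10 genes, and for H2-K1 at 2608 bases in place of 2938.

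Among the genes that load peptides onto class I molecules, the TAP and tapasin genes were measured lower in LYZKL, and others lay on either side. Of 14 genes of peptide transport and loading, 0 passed over all genes tested, and 7 were lower and 0 higher at an unadjusted p under 0.05 (7.85% and 10.9% of all genes). By limma-voom 3 fell and 0 rose, where 3.54% of all genes fell and 5.8% rose. Without overlap, 8 lay lower and 4 higher (24.4% and 27.8% of all genes). The 4 were Lnpep, Hspa5, Uggt1 and Wdfy4, with differences of 0.17, 0.11, 0.07 and 0.11 (adjusted p of at least 0.313 in limma). The list's median log2 difference was −0.17. The TAP subunit genes Tap1 and Tap2 differed alike: Tap1 had 31.2 and 31.9 FPKM in WTKL against 20.9 and 24.3 in LYZKL, and Tap2 had 39.0 and 38.5 against 25.5 and 29.95. Tapbp, the tapasin gene, was at 93.1 and 100.2 FPKM in WTKL and 69.1 and 75.7 FPKM in LYZKL. In none of these 3 did the groups overlap, and the log2 differences were −0.47, −0.47 and −0.41 (SE 0.09, 0.09 and 0.07, adjusted p = 0.105, 0.109 and 0.0963 in limma). Of the general chaperone genes, Calr, which encodes calreticulin, was at 1209 and 1371 FPKM in WTKL and 1054 and 1249 FPKM in LYZKL, with overlap, and Hspa5, the BiP gene, had 391.6 and 388.5 FPKM in WTKL against 419 and 422 in LYZKL.

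The 5 immunoproteasome and activator genes were all lower at an unadjusted p under 0.05 (7.85% of all genes), 0 passed over all genes tested, and 4 fell by limma-voom (3.54% of all genes). Their median was −0.35. Psmb8, an inducible catalytic subunit, was at 76.2 and 76.4 FPKM in WTKL and 55.6 and 63.7 FPKM in LYZKL (adjusted p = 0.135). Psme1, a subunit of the proteasome activator PA28, was at 387.4 and 387.2 FPKM in WTKL and 269.8 and 317.5 FPKM in LYZKL (adjusted p = 0.138). Psme2, the other PA28 subunit, had a log2 difference of −0.40, Psmb9 one of −0.34 and Psmb10 one of −0.29. LYZKL replicate 1 was the lowest library for all 5 genes.

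The 19 regulators of class I transcription lay on both sides. At an unadjusted p under 0.05 there were 7 lower and 1 higher (7.85% and 10.9% of all genes), 0 passed over all genes tested, and limma-voom called 7 lower and 1 higher (3.54% and 5.8%). Without overlap, 8 lay lower and 5 higher (24.4% and 27.8% of all genes). The list's median was 0.0009. Nlrc5, the class I transactivator, had 24.96 and 24.04 FPKM in WTKL against 15.05 and 17.5 in LYZKL. The groups did not overlap, and the log2 difference was −0.56 (SE 0.09, 95% interval −0.80 to −0.33, adjusted p = 0.0841 in limma). Irf1 had 123 and 112 FPKM in WTKL against 80.8 and 85.3 in LYZKL, with a difference of −0.50 (SE 0.07, adjusted p = 0.0746 in limma). Stat2 and Irf8 had differences of −0.51 and −0.55, and Nfkb1, a subunit gene of NF-kB, one of −0.21 (adjusted p = 0.17). Irf2, another interferon regulatory factor gene, had 24.9 and 23.6 FPKM in WTKL against 24.3 and 24.2 in LYZKL, with overlap. Rfx5, a subunit of the RFX complex that holds NLRC5 at the promoter, was at 3.95 and 3.99 FPKM in WTKL and 3.00 and 2.77 FPKM in LYZKL. The other RFX genes, Rfxap and Rfxank, and the NF-Y genes Nfya, Nfyb and Nfyc had differences of 0.24, 0.0038, −0.0050, 0.14 and 0.10, with adjusted p of at least 0.415. Atf1, whose protein binds CREB/ATF sites, was the 1 regulator higher at an unadjusted p under 0.05, at 13.5 and 14.0 FPKM in WTKL and 21.5 and 19.4 FPKM in LYZKL (log2 difference 0.54, adjusted p = 0.0672).

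Interferon ligands and receptors gave a mixed picture. Of 15 tested genes of interferon ligands, receptors and kinases, 5 were lower and 1 higher at an unadjusted p under 0.05 (7.85% and 10.9% of all genes), 0 passed over all genes tested, and limma-voom called 2 lower and 1 higher (3.54% and 5.8%), with a list median of −0.05. Ifng itself was at 3.11 and 2.93 FPKM in WTKL and 1.86 and 2.44 FPKM in LYZKL (log2 difference −0.36, adjusted p = 0.247 in limma). Ifnb1 was listed at 0 in 3 libraries and at 0.0862 FPKM in WTKL replicate 1. The receptor gene Ifngr1 was at 73.3 and 67.4 FPKM in WTKL and 71.5 and 73.2 FPKM in LYZKL, with overlap. Irf7 and Usp18, both induced by interferon, had differences of −0.49 and −0.62, and the kinase gene Jak2, which acts below the interferon-gamma receptor, one of 0.36.

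**Figure D3:**
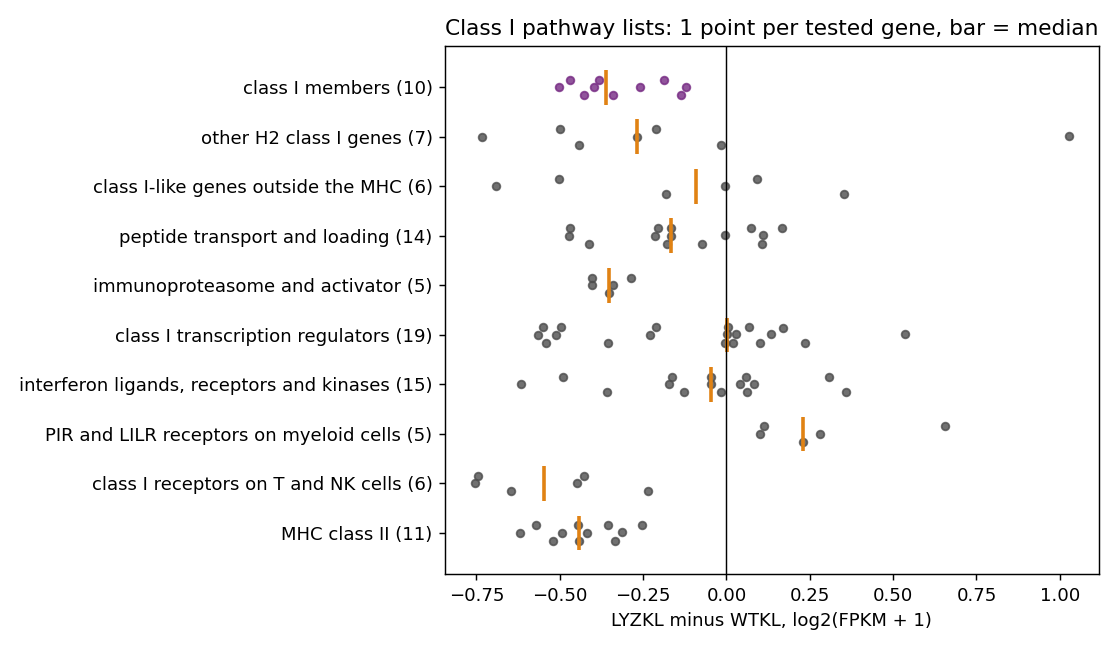
Difference of LYZKL minus WTKL on the log2(FPKM + 1) scale for each tested gene of the class I pathway lists, 1 point per gene, with the number tested in parentheses and an orange bar at the list median. The 10 class I genes lie between −0.50 and −0.12, all 11 MHC class II genes lie below 0, and the 5 PIR and LILR family receptors of myeloid cells all lie above it.

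The PIR and LILR receptor families of myeloid cells hold receptors for class I molecules, such as Pirb, along with members that bind other ligands. Of their 5 tested genes, 3 were higher and 0 lower at an unadjusted p under 0.05 (10.9% and 7.85% of all genes), 0 passed over all genes tested, and limma-voom called 2 higher (5.8% of all genes). The groups did not overlap for 5, all higher, where 27.8% of all genes lay higher without overlap. Pirb had 98.2 and 93.8 FPKM in WTKL against 107 and 99.4 in LYZKL (log2 difference 0.10, adjusted p = 0.443). Lilrb4a, an inhibitory receptor gene not established as a class I receptor, was at 779 and 739 FPKM in WTKL and 988 and 860.1 FPKM in LYZKL (log2 difference 0.28, adjusted p = 0.213 in limma). Lilra6 was at 6.38 and 5.19 FPKM in WTKL and 10.62 and 8.75 FPKM in LYZKL, a difference of 0.66 (adjusted p = 0.12), and Pira2 had one of 0.23. The activating and inhibitory receptors of this family are close copies, so reads could be divided among them. Of 6 tested receptor genes of T and NK cells, 5 were lower at an unadjusted p under 0.05 (7.85% of all genes), 0 passed over all genes tested and limma-voom called 3 lower (3.54%). The CD8 coreceptor genes Cd8b1 and Cd8a did not overlap between the groups: Cd8b1 had 7.89 and 7.84 FPKM in WTKL against 3.69 and 4.89 in LYZKL, and Cd8a 4.02 and 3.31 against 1.504 and 2.07. Klrc1, which encodes an NKG2 receptor chain for Qa-1, had 1.79 and 1.499 FPKM against 0.582 and 0.798. Klra2 was the most abundant of the 6, at 53.0 and 49.5 FPKM in WTKL and 44.6 and 42.1 in LYZKL (log2 difference −0.24, adjusted p = 0.172 in limma).

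The median difference of the class I genes, −0.36, lay near that of the MHC class II genes, which show peptides to CD4 T cells. The abundant classical heavy chain genes H2-K1 and H2-D1 differed less, by −0.26 and −0.13. The 11 class II genes had a median of −0.44, with 9 lower at an unadjusted p under 0.05 (7.85% of all genes), 0 past the adjusted threshold and 9 that fell by limma-voom (3.54%). H2-Aa, an alpha chain gene, was at 372.9 and 371.1 FPKM in WTKL and 267 and 280.4 FPKM in LYZKL, a difference of −0.44 (SE 0.05, adjusted p = 0.0641 in limma). H2-Ab1, the matching beta chain gene, was at 4791 and 5167 FPKM in WTKL and 3196 and 3910.0 FPKM in LYZKL, a difference of −0.49 (SE 0.12, adjusted p = 0.155). Whether the class I and class II differences differ from each other was not tested.

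Markers of other cell types differed in the same comparison. Of 18 tested T and NK cell markers, 13 were lower and 0 higher at an unadjusted p under 0.05 (7.85% and 10.9% of all genes), 0 passed over all genes tested and limma-voom called 8 lower (3.54%). Their summed level over 22 genes was 155 and 145 FPKM in WTKL and 91.5 and 112.1 FPKM in LYZKL. Cd8a, Cd8b1 and Klrd1 are also among the receptor genes of T and NK cells above, so those lists share genes. Of 11 tested neutrophil markers, 8 were higher and 0 lower at an unadjusted p under 0.05 (10.9% and 7.85% of all genes), 0 passed over all genes tested and limma-voom called 8 higher (5.8%). Their sum over 14 genes was 2537 and 1998 FPKM in WTKL and 5919 and 3900.1 FPKM in LYZKL. The most abundant neutrophil markers were S100a9 (2061 and 1562 FPKM in WTKL, 4860.0 and 3079 in LYZKL) and G0s2 (134 and 118, then 319 and 249.8). Thy1 (25.9 and 25.0 FPKM in WTKL, 11.95 and 19.8 in LYZKL) and Il7r (23.04 and 20.3, then 17.2 and 18.2) led the T and NK list. At an unadjusted p under 0.05, 4 of 10 tested dendritic cell markers were lower and 1 higher (7.85% and 10.9% of all genes). The full list of 15 summed to 124 and 116 FPKM in WTKL and 119.9 and 122 FPKM in LYZKL, and the groups overlapped. Cd24a had 28.3 and 26.9 FPKM in WTKL and 51.0 and 42.2 in LYZKL, and was left out after its values were seen. Without it, the other 14 summed to 96.2 and 89.2 in WTKL against 68.8 and 79.9 in LYZKL, lower without overlap. Leaving out a gene that was higher in LYZKL shifts the sum that way, so nothing is concluded from it. Of the 10 tested dendritic markers, 6 were lower and 1 higher without overlap (24.4% and 27.8% of all genes). Among 8 tested B cell and plasma cell markers, 1 was lower and 0 higher at an unadjusted p under 0.05 (7.85% and 10.9% of all genes). The full list of 10 summed to 149 and 303 FPKM in WTKL and to 129 and 226 FPKM in LYZKL, with overlap. No gene of these 4 lists that the table holds was at 0 in all libraries. Bst2 and Cd24a led the dendritic list and Igkc and Ighm the B cell list. Lyz2 and Apoe were the most abundant macrophage markers, and Lyz2, the locus of the Cre, had 9560.2 and 10232 FPKM in WTKL against 2614 and 3650.4 in LYZKL (adjusted p = 0.0641). Of 10 tested alveolar macrophage markers, 4 were higher and 1 lower at an unadjusted p under 0.05 (10.9% and 7.85% of all genes). Limma called 1 of them higher after adjustment, Siglecf (0.158% of all genes called higher), and limma-voom 2 higher and 1 lower (5.8% and 3.54%). Marco had 25.3 and 22.4 FPKM in WTKL against 33.4 and 40.5 in LYZKL (log2 difference 0.61, adjusted p = 0.111), and Chil3, which with Ear2 was the most abundant of the list, had one of −0.32 (adjusted p = 0.183). Most abundant of the other lists were Sftpc and Cdh1 (epithelial) and Vwf and Pecam1 (endothelial and fibroblast). Epithelial sums overlapped between the groups, at 45.5 and 58.8 FPKM in WTKL and 47.7 and 47.1 in LYZKL, and so did endothelial and fibroblast sums, at 13.7 and 14.7 against 14.9 and 13.9. The 5 red blood cell markers summed to 1.32 to 2.08 FPKM. The part of these cells in the class I differences was not tested.

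**Figure D4:**
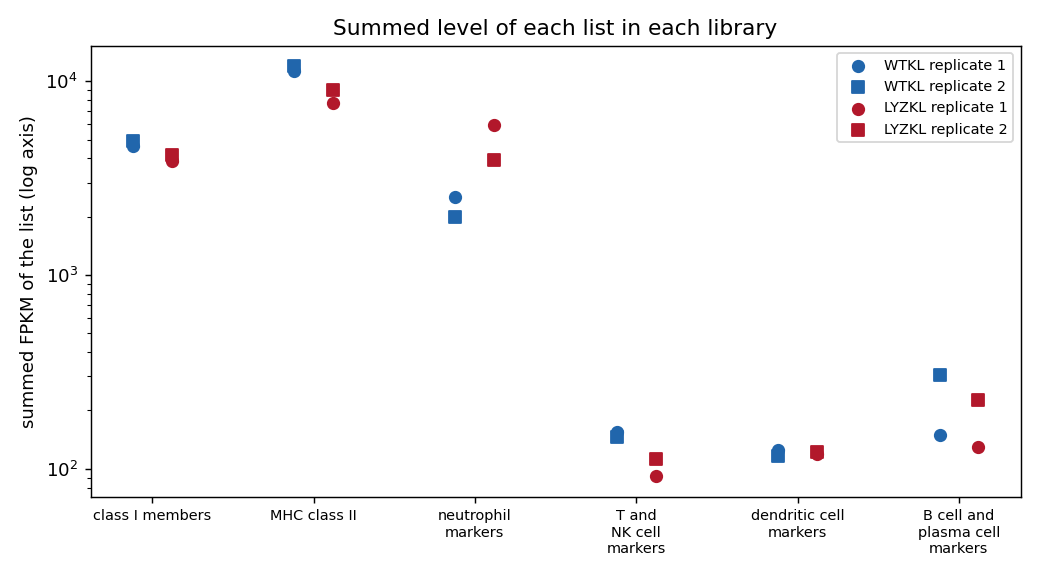
Summed FPKM (log axis) of the class I genes, the MHC class II genes and the marker lists of 4 other cell types in each library, with WTKL in blue and LYZKL in red, replicate 1 as circles and replicate 2 as squares. The class I, class II and T and NK sums are lower and the neutrophil sums higher in both LYZKL libraries, and the B cell sums and the dendritic sums with Cd24a overlap between the groups.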

How the data were processed

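The 4 libraries were grouped by the titles in the labels. The authors deposited 1 table of FPKM values with a column for each library. Tools listed, without roles, are Cell Ranger 6.1.2, featureCounts 2.0.0 and HISAT2 2.0.5 with build mm10, per the submitters' processing notes. No source used here names the annotation or says how reads that fit several genes were treated. Per the labels' protocols the RNA libraries were unstranded and sequenced as paired reads. All 4 carry 1 batch label.

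LYZKL was compared with WTKL by limma 3.58.1 (R 4.3.3) with a mean-variance trend on log2(FPKM + 1), a scale that understates changes of low genes, over the 12691 rows with a mean of at least 1 FPKM. Two-sided p-values were adjusted over all rows tested after Benjamini and Hochberg (threshold 0.05). Limma called 37 genes, 20 higher and 17 lower. On simulated data the fit was tested before use. Reads were rebuilt from the worth of 1 read at the GENCODE M21 exon length, or at a searched length, and came out whole for 12676 tested rows (99.88%, tolerance 0.05 and 0.003 read). Alternatives were other pseudocounts (0.1 and 5), other filters, no trend, 2 other scalings, a replicate block, leaving out each library, and limma-voom on rebuilt reads.

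The members and the lists were chosen with earlier results of these data known. Named were all members, Tmem173, regulators and loading genes by role, up to 3 genes of smallest p per pathway list and the 2 most abundant markers per cell type list. Calr, Hspa5, Lnpep, Uggt1, Wdfy4, Nfkb1, Irf2, Pirb, Marco, Ifngr1, Ifnb1, Atf1, the RFX and NF-Y genes, Siglecf, Ly6g, Cd68, Adgre1 and Fcgr1 were named after their values were seen. So were Klra2 and Klrd1. A gene that this rule selects is not reported here.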

Additional observations from a re-analysis of the deposited data

How the results depend on the processing

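Each of the 10 class I differences was negative in all 13 alternatives, 130 of 130 values, and 13 of these passed the adjusted threshold that the reported values missed. For genes whose groups do not overlap, only the 2 other scalings and limma-voom could have changed a sign. In the rest of the alternatives the sign was fixed by the same 4 libraries. The median class I difference ranged from −0.40 to −0.34, and the number of members lower at an unadjusted p under 0.05 from 6 to 8. The number of all genes called, 37, was 0 without a filter, 0 without the trend, 0 with the replicate block, 0 without any 1 of the 4 libraries (lowest and highest 0), 340 at a mean of at least 5 FPKM, where fewer genes are tested, and 1184 by limma-voom on rebuilt reads. The number of class I genes called lower, 0, was 6 at a mean of at least 5 FPKM and 7 by limma-voom. The difference in the nonclassical share, −2.27 percentage points, was −1.02 without H2-Q6 and H2-Q7. Why these values moved was not tested. Labels do not say what a shared replicate number means, and the replicate 1 deviations of the groups correlated at 0.16 across 12691 genes. The replicate block left 8 class I genes lower at an unadjusted p under 0.05 and 0 called. With 1014 to 95522 reads per class I gene and library, 2 libraries a group limit precision more than depth does.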

Other observations

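Other H2 class I genes in the table did not all lie on the lower side. Of 7 tested, 3 were lower and 1 higher at an unadjusted p under 0.05 (7.85% and 10.9% of all genes), and limma called 0 after adjustment, while limma-voom called 3 lower and 1 higher (3.54% and 5.8%). H2-Q10, which encodes a secreted class I chain best known from liver (chromosome 17, plus strand, 35470089 to 35474563), was at 5.03 and 4.73 FPKM in WTKL and 12.5 and 9.65 FPKM in LYZKL. Its log2 difference was 1.03 (SE 0.13, adjusted p = 0.0657 in limma), opposite in sign to all 10 class I genes of the report. Over the 13 alternatives it ran from 0.70 to 1.20. The groups did not overlap for H2-Q10, so most of these alternatives could not change its sign. Of its 100-base stretches, 8.01% are shared with other genes, and H2-Q7 is the main partner. H2-M2 (minus strand, 37480851 to 37483552) was at 247 and 276 FPKM in WTKL and 140.6 and 174.7 FPKM in LYZKL. Its difference of −0.73 (SE 0.13, adjusted p = 0.0961) was larger in size than any of the 10, and none of its 100-base stretches is shared with another gene. H2-Q5 had a difference of −0.44.

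Class I-like genes outside the MHC differed in sign. Of 6 tested, 2 were lower and 1 higher at an unadjusted p under 0.05 (7.85% and 10.9% of all genes), with 0 past the adjusted threshold in limma and 2 lower by limma-voom (3.54%). Cd1d1, whose product presents lipids to NKT cells, was at 13.86 and 13.85 FPKM in WTKL and 9.34 and 9.66 FPKM in LYZKL (log2 difference −0.50, adjusted p = 0.0641). Procr, the endothelial protein C receptor gene, was at 35.7 and 30.9 FPKM and at 18.6 and 21.8 FPKM (−0.69, adjusted p = 0.0875), and the NKG2D ligand gene Ulbp1 at 3.55 and 3.68 FPKM and at 4.88 and 4.92 FPKM (0.35, adjusted p = 0.115).

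The genes whose log2 profile over the 4 libraries lay nearest to the mean class I profile, among 5824 candidate genes of at least 5 FPKM on average, were Hk3, Igbp1, Rpl31-ps8, Rpa3 and Dram1. Their root mean square distances were 0.0131, 0.0165, 0.0168, 0.0187 and 0.0208 on the log2 scale, and their differences lay between −0.35 and −0.29. With 4 libraries this describes a profile and carries no test. The candidates left out the class I members, rows that share a name, and names such as those starting with Gm, LOC or Mir or ending in Rik or -ps. Rpl31-ps8, a pseudogene by its name, stayed in because -ps does not end the name.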
